A study of Mus musculus with 2 samples.

Results

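The beta chain V segments are the genes of the mouse T cell receptor beta locus that supply the first part of the variable region of each beta chain. They were taken as the genes whose symbol is Trbv followed by a number, with the exception of Trbv26, which gave 34 of the 31053 genes in the RNA table. In the T cell receptor (TCR) table the same segments were read from the V call of the beta chain contigs, which were 7515 of 18289 contigs. A contig is a receptor sequence assembled from the reads of 1 cell barcode, and the table marks it productive where it can encode a chain.

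Donor T cells were sorted from the colons of 5 lethally irradiated Balb/c mice on day 21 after they had received bone marrow and splenocytes of C57BL/6 donors, the splenocytes set to a fixed dose of alpha beta T cells. Cells of the 5 colons were pooled before they were sorted for H2-Kb, a class I molecule of the donor strain, and for the TCR beta chain. The pool gave 1 droplet RNA library with 5' chemistry and 1 TCR library made from the same cDNA. The pool is therefore 1 sample with no replicate, every value below describes these libraries, and all intervals are 95% intervals that cover counting error only. The titles name CD4 T cells alone, whereas the sort did not use CD4, and 2 classes were compared here: CD4 class cells, with a Cd4 unique molecular identifier (UMI) count of at least 1 and none of Cd8a or Cd8b1, and CD8 class cells, in which Cd8a or Cd8b1 was counted at least once and Cd4 was not.

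The RNA table held 5348 barcodes, of which 5333 were kept, with 2549 to 39138 UMIs per cell. Of the kept cells, 99.3% had UMIs of at least 3 of 8 T cell markers and 1.65% of at least 3 of 8 macrophage markers. Of 4 B cell markers, 2 had any UMI, at a summed 0.00540 per 10000 in the CD4 class and 0.0354 per 10000 in the CD8 class. There were 1861 CD4 class cells with a median of 4768 UMIs and 2391 CD8 class cells with a median of 4910 UMIs, while 301 cells held UMIs of both sides and 780 of neither. The contig table covered 5990 barcodes, 5143 of them shared with the RNA table.

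Each T cell builds its beta chain gene by joining a V, a D and a J segment, and bases are trimmed and added at the joins to form the CDR3, the loop that touches antigen. The V segment also encodes the loops that mostly contact the MHC molecule and much of the surface that superantigens bind. Joining is imprecise, and a cell can carry a failed rearrangement on its second chromosome beside the working one. CD4 T cells read MHC class II and CD8 T cells read MHC class I.

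The V segments differ at the end that enters the CDR3, and before trimming these ends tell many of the segments apart. The lines give the end of the germline segment from the first base of the CDR3, 5′ to 3′, from the GENCODE transcripts of mm10, with capitals for the bases that at least 50% of the clonotypes of that segment still carried.
Trbv31: TGTGCCTGGAGTCtca
Trbv1: TGCAGTGCaga
Trbv3: TGTGCCAGCAGCTtagccaca
Trbv29: TGTGCTAGCAGTTTatc
Trbv13-1: TGTGCCAGCAGTGAtg
Trbv13-2: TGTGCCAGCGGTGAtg
Trbv12-2: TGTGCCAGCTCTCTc
Trbv4: TGTGCCAGCAGCtaaga
Trbv5: TGTGCCAGCAGCCAAGa
Trbv1 had the shortest end of the 19 segments with clonotypes, 11 bases, and its clonotypes kept a median of 8 of them. Trbv5 kept the most, a median of 16 of 17 bases, and 29 of its 65 clonotypes carried the whole end. The Trbv13-1 end is identical to that of Trbv13-3, the Trbv12-2 end to that of Trbv12-1 and the Trbv5 end to that of Trbv2, so within these pairs the CDR3 alone does not give the segment. Trimmed ends are shared more widely. The bases kept by at least 50% of clonotypes were the same 12 for Trbv13-3, Trbv14 and Trbv15.

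The segments span chr6:40891229-41558452 of mm10, from Trbv1 on the plus strand, which lies apart from the other segments, to Trbv31, which lies on the minus strand. The GENCODE annotation lists 21 of the 34 segments as functional V genes and 13 as pseudogenes. In RNA, 23 segments had at least 1 UMI in the kept cells and together held 38684 UMIs, 11.8 per 10000. The 11 with no UMI were Trbv6, Trbv7, Trbv9, Trbv10, Trbv11, Trbv12-3, Trbv18, Trbv25, Trbv27, Trbv28 and Trbv30, of which Trbv30 alone is listed as functional. RNA, contigs and productive contigs were all present for 19 segments. Trbv24 had RNA and contigs but no productive contig, Trbv11 had 1 contig and no RNA, and Trbv8, Trbv21 and Trbv22 had RNA of 4, 2 and 46 UMIs and no contig. Trbv21 is listed as functional and was still close to absent in both libraries. Trbv13-1 had the most RNA, 6003 UMIs in 740 cells, and Trbv13-2 reached the most cells, 1240 cells with 5447 UMIs.

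Clonotypes were used to compare the classes, so that a large clone weighed less than in a count of cells. A clonotype was the set of productive alpha and beta chains, each given by its segments and the bases of its CDR3, and was taken from cells that held a single productive beta contig and at least 1 productive alpha contig. Cells with the same beta chain but different sets of alpha chains were separate clonotypes. A clone can thus count more than once where an alpha contig was missed in some of its cells. The definition gave 826 clonotypes in 2628 cells, 327 of them of the CD4 class and 345 of the CD8 class by the majority of their classed cells. Of the kept cells, 1757 had no productive beta contig and entered no clonotype. They included 557 of the 649 cells in which Trbv13-2 had the most Trbv UMIs in RNA. Also among them were 276 cells with a Trbv3 contig not of full length and the excluded segment Trbv26 on top in RNA. No beta contig was called Trbv26. The class shares by contig leave all these cells out. By the RNA call described below, Trbv26 was more frequent in CD4 class clonotypes, so this part of the gap was uneven between the classes. Only 9 clonotypes held cells of both classes.

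By these clonotypes, V use differed most for Trbv29, Trbv31 and Trbv1 among segments with at least 20 clonotypes. The Trbv1 ratio depended on the way of counting, from 1.60 to 4.07 over 10 alternatives. Among the 15 segments with at least 20 clonotypes over both classes, 5 took a share at least 1.5-fold higher in the CD4 class, 5 a share at least 1.5-fold lower, and 5 lay between. The same rule on the alpha chain V segments of these clonotypes named 2 of 7 as higher in the CD4 class (28.6%) and 3 of 7 as lower (42.9%), so the beta chain counts were near those of the other chain.

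Trbv29 (ENSMUSG00000076480, chr6:41271394-41271881, plus strand; V beta 7 in the older nomenclature) was the segment with the lowest ratio. It made up 4 of 327 CD4 class clonotypes, 1.22% (0.334 to 3.10), and 32 of 345 CD8 class clonotypes, 9.28% (6.43 to 12.8). The ratio of CD4 over CD8 class was 0.132 (0.0339 to 0.372), and its largest clonotype held 20.5% of the Trbv29 cells. RefSeq lists Trbv29 as a pseudogene and GENCODE as functional, and 136 of its 138 contigs (98.6%) were productive.

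Trbv31 (ENSMUSG00000076499, chr6:41557691-41558452, minus strand; V beta 14) showed the opposite pattern. It made up 19 CD4 class clonotypes, 5.81% (3.53 to 8.93), and 5 CD8 class clonotypes, 1.45% (0.472 to 3.35), a ratio of 4.01 (1.45 to 13.7). Trbv1 (ENSMUSG00000076461, chr6:40891229-40891885, plus strand; V beta 2) made up 36 CD4 class clonotypes, 11.0% (7.83 to 14.9), and 13 CD8 class clonotypes, 3.77% (2.02 to 6.36), a ratio of 2.92 (1.51 to 6.00). The Trbv1 ratio was 1.60 when clonotypes were set by the beta chain alone.

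Trbv3 (ENSMUSG00000076463, chr6:41048290-41048828, plus strand; V beta 16) had the most clonotypes over both classes by productive contigs. In the CD8 class Trbv13-1, Trbv29 and Trbv12-1 had more. By the RNA call described below, and with Trbv26 set aside, Trbv13-2 and Trbv19 had more over both classes. Trbv3 made up 45 CD4 class clonotypes, 13.8% (10.2 to 18.0), and 29 CD8 class clonotypes, 8.41% (5.70 to 11.8), a ratio of 1.64 (1.004 to 2.71). Trbv13-1 (ENSMUSG00000076467, chr6:41116007-41116468, plus strand; V beta 8.3) made up 17 CD4 class clonotypes, 5.20% (3.06 to 8.19), and 41 CD8 class clonotypes, 11.9% (8.66 to 15.8). Its ratio was 0.437 (0.233 to 0.787), and 0.700 with the beta chain alone. These were the 5 segments of the 15 whose intervals lay on 1 side of 1.

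The intervals of the other 10 held 1. Above 1 were Trbv15, with 22 CD4 class and 13 CD8 class clonotypes and a ratio of 1.79 (0.861 to 3.86), and Trbv5, with 29 CD4 class and 20 CD8 class clonotypes and a ratio of 1.53 (0.836 to 2.85). Trbv17, with 6 CD4 class and 16 CD8 class clonotypes, had a ratio of 0.396 (0.127 to 1.06). Trbv16, with 13 CD4 class and 26 CD8 class clonotypes, was at 0.528 (0.249 to 1.06). Trbv12-1, with 16 CD4 class and 30 CD8 class clonotypes, was at 0.563 (0.286 to 1.07). Trbv4, with 18 CD4 class and 28 CD8 class clonotypes, was at 0.678 (0.353 to 1.27), so these 4 shared a direction that counting error does not separate from 1 on this count. Trbv19, Trbv20, Trbv12-2 and Trbv13-3 lay between 0.860 and 1.19. Trbv12-1, Trbv12-2, Trbv15 and Trbv16, which bear the older names V beta 5.2, 5.1, 12 and 11, thus had ratios on both sides of 1.

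The segments under 20 clonotypes were Trbv2, with 6 CD4 class and 2 CD8 class clonotypes, Trbv13-2, with 10 CD4 class and 4 CD8 class clonotypes, Trbv14, with 4 CD4 class and 10 CD8 class clonotypes, and Trbv23. Trbv23 (V beta 20) had 8 CD4 class clonotypes and 0 of 345 CD8 class clonotypes. Against a floor of 3 counts over the class, a share of 0.870%, the CD4 class share of 2.45% was 2.81-fold higher. That value leaves out the counting error of the 8 clonotypes. The two-sided interval is wider, with a CD8 class share of up to 1.06% and a lower bound of the ratio of 1.80. Its RNA was at 0.0864 UMIs per 10000 in the CD4 class, against 0.0160 in the CD8 class, a ratio of 5.40 (3.42 to 8.83).

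**Figure D1:**
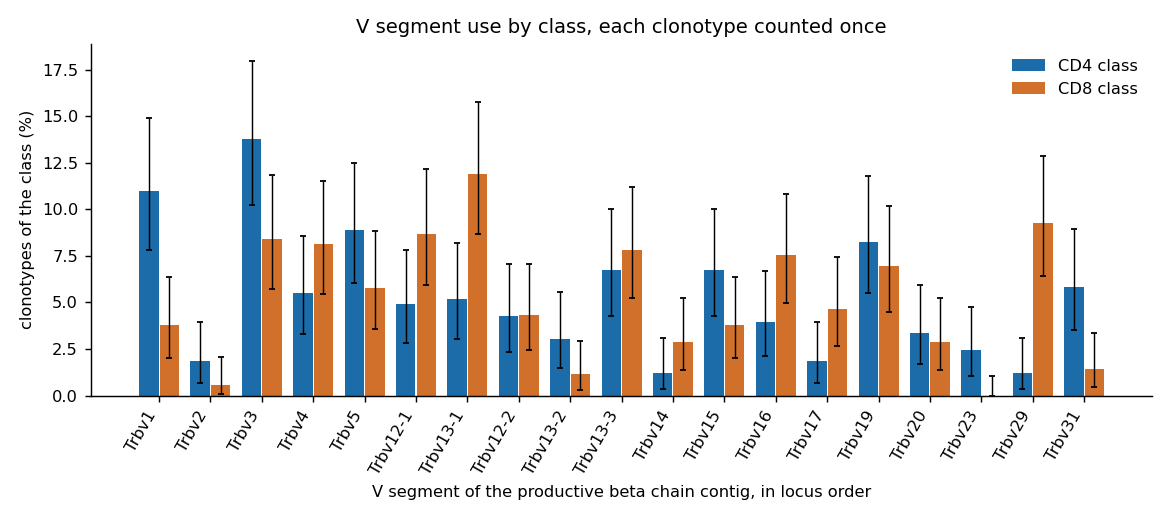
Share of the CD4 class (left bar of each pair, n = 327) and CD8 class (right bar, n = 345) clonotypes by V segment, in the order of the locus, with 95% Clopper-Pearson intervals. Trbv31, Trbv1 and Trbv3 stand higher in the CD4 class, and Trbv29 and Trbv13-1 in the CD8 class.

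Counting cells in place of clonotypes moved most ratios further from 1 and put Trbv15, Trbv17 and Trbv13-3 on the other side of it. A clonotype held 3.18 cells on average, and 34.9% of CD4 class (29.7 to 40.3) and 29.9% of CD8 class clonotypes (25.1 to 35.0) had 2 or more cells. Among segments with at least 20 clonotypes, Trbv13-1 had the most cells per clonotype, 6.84 and, without its largest, 3.28, and Trbv16 the fewest, 1.38. Trbv19 had the largest share of clonotypes with 2 or more cells, 25 of 59, 42.4% (29.6 to 55.9). For Trbv12-2 the share was 4 of 33, 12.1% (3.40 to 28.2).

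Single clones made up much of some segments. The lines give the beta CDR3 of the 4 largest clonotypes and of the largest of Trbv1 and Trbv31, segments with a higher CD4 class share, 5′ to 3′, with capitals for the bases that match the germline V end without a break from the start.
Trbv13-1 with TRBJ1-3, 263 cells: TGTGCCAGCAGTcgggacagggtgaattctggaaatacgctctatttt
Trbv13-1 with TRBJ2-5, 88 cells: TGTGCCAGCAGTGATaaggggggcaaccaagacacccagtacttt
Trbv4 with TRBJ2-7, 83 cells: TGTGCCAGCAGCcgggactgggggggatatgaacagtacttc
Trbv17 with TRBJ2-4, 57 cells: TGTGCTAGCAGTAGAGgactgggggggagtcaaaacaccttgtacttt
Trbv1 with TRBJ1-1, 54 cells: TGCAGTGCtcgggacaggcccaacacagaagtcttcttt
Trbv31 with TRBJ1-1, 39 cells: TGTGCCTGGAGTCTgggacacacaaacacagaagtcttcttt
The Trbv13-1 clone of 263 cells had 0 CD4 class and 259 CD8 class cells and held 52.7% of all Trbv13-1 cells with a clonotype. The Trbv17 clone had 38 CD4 class and 1 CD8 class cells and held 51.8% of the Trbv17 cells. The Trbv17 ratio was 0.396 by clonotypes and 2.22 by cells. In Trbv15 the largest clone, of 27 cells, had 0 CD4 class and 26 CD8 class cells, and the ratio was 1.79 by clonotypes and 0.765 by cells. Trbv13-3, whose largest clone had 13 cells, was at 0.860 by clonotypes and 1.55 by cells. The Trbv31 ratio grew to 22.0 by cells, and the Trbv13-1 ratio fell to 0.146, while Trbv29 changed little, at 0.0957.

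RNA of Trbv31, Trbv1 and Trbv3 was higher in the CD4 class and that of Trbv29, Trbv12-1 and Trbv13-1 in the CD8 class. Levels are UMIs of a gene per 10000 UMIs of all cells in a class. Of the 20 segments with at least 50 UMIs over both classes, 8 were at least 1.5-fold higher in the CD4 class, against 7.92% of the 10133 genes that reached the same count. At least 1.5-fold lower were 7 segments, against 7.02% of genes. The median log2 ratio was 0.21 over the 20 segments and -0.04 over all genes. The UMIs of a class are summed over its clones, so the number of cells with a segment and the large clones weigh on these levels.

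Trbv31 RNA was at 0.627 UMIs per 10000 in the CD4 class, against 0.0674 in the CD8 class, a ratio of 9.30 (7.54 to 11.6). Trbv1 RNA was at 1.73 in the CD4 class, against 0.596 in the CD8 class, a ratio of 2.91 (2.68 to 3.15). For Trbv3 these were 1.31 in the CD4 class, against 0.527 in the CD8 class, a ratio of 2.49 (2.29 to 2.72). Trbv29 RNA was at 0.0693 in the CD4 class, against 0.761 in the CD8 class, a ratio of 0.0911 (0.0714 to 0.115). These 4 segments had the direction of their clonotype share.

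Trbv12-1 RNA was at 0.153 UMIs per 10000 in the CD4 class, against 1.24 in the CD8 class, a ratio of 0.123 (0.105 to 0.144). Trbv13-1 RNA was at 0.726 in the CD4 class, against 2.99 in the CD8 class, and 53.4% of its CD8 class UMIs came from 1 clonotype. Trbv17 RNA was 1.33-fold higher in the CD4 class, with 67.7% of its CD4 class UMIs in 1 clonotype. With 1 cell per clonotype the RNA ratio of Trbv17 was 0.614 and that of Trbv15, 0.681 over all cells, was 2.46. For both, the direction then matched the clonotype share. The ratio of Trbv31 was 2.39 and that of Trbv3 was 1.38 with 1 cell per clonotype.

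Most other genes of the receptor differed by less than 1.5-fold between the classes. Trbc1 and Trbc2, the beta chain constant genes, had ratios of 0.857 and 0.789, and Trac, the alpha chain constant gene, of 0.863. Of the signalling chains, Cd3d was at 0.830, Cd3e at 0.849 and Cd3g nearer to 1, while Cd247, which encodes the zeta chain, was at 1.62. The recombination genes Rag1 and Rag2 and Dntt, which adds bases at the joins, had 0 UMIs in both classes. Of the 7 of these genes with UMIs, 1 was past 1.5-fold.

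**Figure D2:**
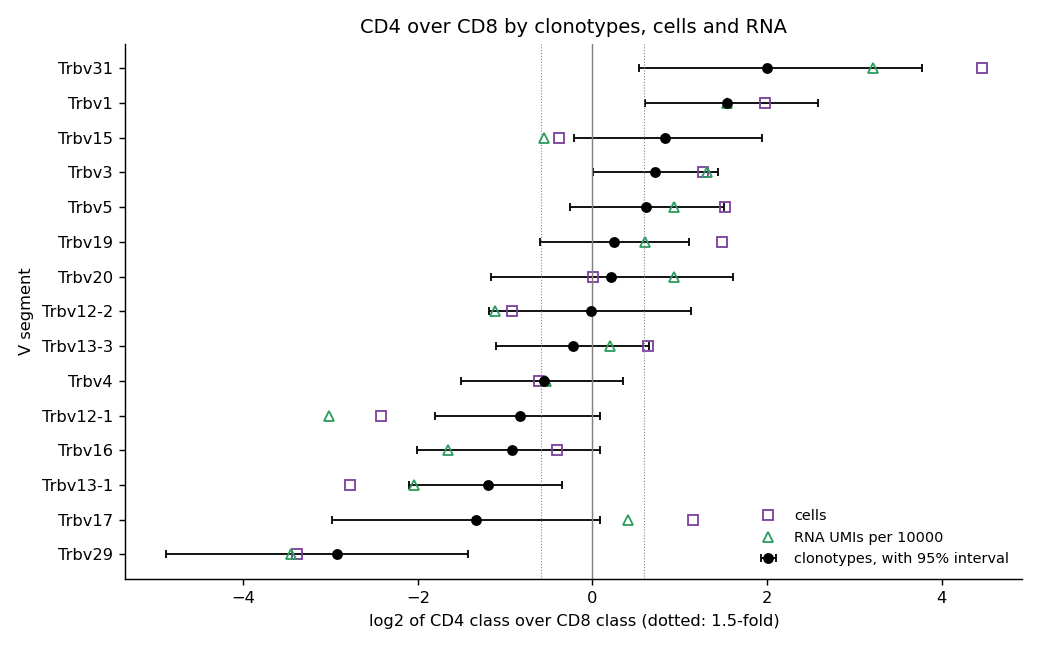
Log2 of the CD4 class over the CD8 class for the 15 V segments with at least 20 clonotypes, by clonotypes with 95% intervals, by cells and by RNA UMIs per 10000. Cells and RNA lie on the other side of 0 from the clonotypes for Trbv15, Trbv17 and Trbv13-3.

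The RNA library and the TCR library named the same V segment in most cells. Of 3344 kept cells with exactly 1 productive beta contig, 2783 had that segment as the Trbv gene with most UMIs in RNA, 83.2% (81.9 to 84.5). The share was 83.5% in the CD4 class (81.2 to 85.7) and 84.5% in the CD8 class (82.7 to 86.2). Another 253 cells had no Trbv UMI, 90 had a tie and 218 had another segment on top. Among the cells with an RNA call, 92.7% matched (91.7 to 93.6).

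Trbv4 and Trbv5 carried most of the mismatch, and without their cells the share that matched was 94.1% (93.1 to 94.9). Of 18 segments with at least 20 such cells, 14 matched in at least 80% of cells, up to 118 of 118 for Trbv15. Trbv5 contigs matched in 79 of 308 cells, 25.6% (20.9 to 30.9), and 151 of these cells had no Trbv UMI at all. Trbv4 contigs matched in 230 of 406 cells, 56.7% (51.7 to 61.5), with 80 cells without a Trbv UMI. The other 2 under 80% were Trbv13-2, with 38 of 52 cells, and Trbv2, with 17 of 22 cells.

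Trbv4 and Trbv5 were low in RNA for the number of contig UMIs. Cells with a Trbv4 contig had 12.4 contig UMIs and 1.55 Trbv4 RNA UMIs on average, and cells with a Trbv5 contig had 8.62 contig UMIs and 0.487 Trbv5 RNA UMIs. That is 0.125 and 0.0565 RNA UMIs for each contig UMI, against 0.335 to 0.648 over the other 16 segments. Trbv4 (chr6:41059394-41059886) and Trbv5 (chr6:41062332-41062803), both on the plus strand, lie inside 5830405F06Rik (chr6:41055883-41063102), a long noncoding RNA annotated on the same strand. No other segment with a productive contig overlaps a gene on its strand. 5830405F06Rik had 42 UMIs in the 406 cells with a Trbv4 contig and 39 in the 308 with a Trbv5 contig, against 4 UMIs in the 2630 cells with other contigs. Its level was 0.176 UMIs per 10000 (0.127 to 0.238) and 0.189 (0.135 to 0.259) in these cells, against 0.00234 in the rest (0.000639 to 0.00600). The sources used here do not say how reads in the shared stretch were assigned, and the part of the overlap in the low counts was not tested.

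**Figure D3:**
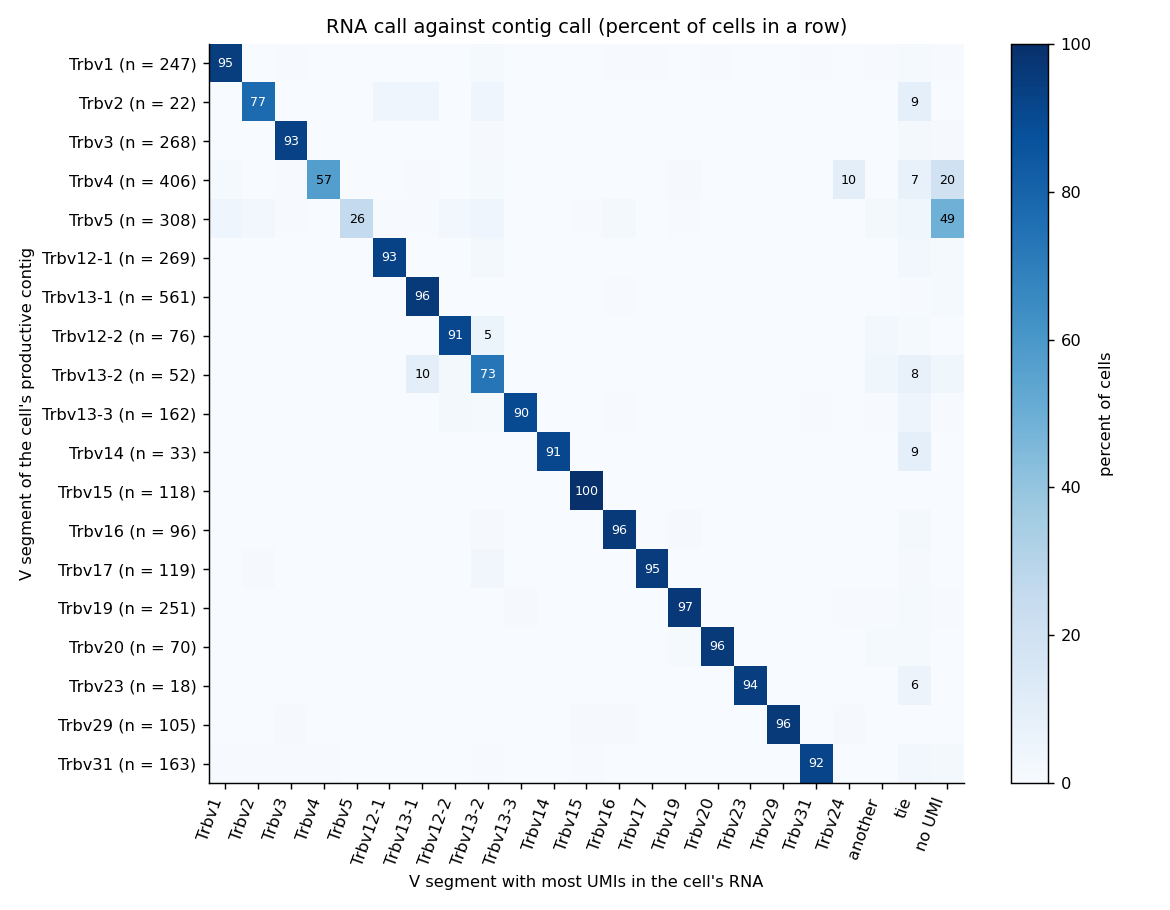
Percent of cells with each productive contig V segment (rows, with the number of cells) by the segment with most UMIs in RNA (columns), with ties and cells without a Trbv UMI at the right. Values of 5% or more are printed, and the diagonal is above 70% in every row but those of Trbv4 and Trbv5.

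Detection of a segment in RNA was then set against the cells of other segments, since free RNA can put UMIs in cells that do not express a gene. Some of these other cells held a second contig of the tested segment that was not productive, as described below. The part of free RNA in their share was not tested. With each cell thinned to 2000 UMIs, 75.7% of cells (74.2 to 77.1) had a UMI of their contig segment, and 89.0% without thinning (87.9 to 90.0). Leaving aside Trbv4 and Trbv5, the thinned share ran from 63.6% for Trbv2 to 33 of 33 cells for Trbv14 in carrying cells, against 0.0617% for Trbv29 to 6.29% for Trbv13-2 in cells with another contig. Median depths were between 4284 and 6221 UMIs in the carrying cells and between 4967 and 5039.5 UMIs in the others for these 16 segments. Trbv4 was detected in 38.9% of carrying cells (34.1 to 43.8) against 0.340% of others, and Trbv5 in 11.7% (8.32 to 15.8) against 0.198%. Their RNA was thus tied to their contigs, although it was seen in fewer cells than that of other segments.

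RNA of Trbv13-2, Trbv16 and Trbv12-2 reached furthest into cells of other segments. Without thinning, Trbv13-2 had a UMI in 49 of 52 carrying cells, 94.2%, and in 457 of 3292 other cells, 13.9% (12.7 to 15.1). Trbv16 had one in 96 of 96 carrying cells and in 9.30% of others, and Trbv12-2 in 75 of 76 and in 6.82%. With clonotypes weighted alike, 528 pairs of a contig segment and another RNA segment were compared, and 9 pairs reached 20% of cells. In 8 of the 9 the RNA was that of Trbv13-2 or Trbv12-2. For pairs with Trbv13-2 RNA, the clonotypes of other segments were already at 15.8% to 17.7%, so a small gap could pass the cut. Trbv12-1 clonotypes had Trbv13-2 UMIs in 22.6% of their cells, against 17.5%, and the gap for Trbv19 clonotypes was smaller still. The pairs given next had the widest gaps of the 9. Trbv13-3 clonotypes had Trbv13-2 UMIs in 45.2% of their cells, against 15.8% in the clonotypes of other segments. Trbv17 clonotypes had them in 40.8%, against 17.1%. Trbv13-2 clonotypes had Trbv12-2 UMIs in 32.9% of cells, against 8.99%. Trbv13-2 and Trbv13-3 are the most alike of the 190 pairs of segments compared, with 90.6% identical bases. Trbv13-1 and Trbv13-2 share 88.6%, and Trbv13-2 and Trbv17 share 64.7%. Whether reads were split between like segments was not tested. Trbv12-2 and Trbv13-2, with 64.7% identical bases, are neighbours in the locus with 2031 bases between them.

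Trbv13-2 (ENSMUSG00000076469, chr6:41121396-41121832, plus strand; V beta 8.2) was on top in the RNA of more cells than any other segment and among the smallest in productive contigs. It had most Trbv UMIs in 649 kept cells, 13.8% of the 4686 cells with an RNA call, of which 249 were CD4 class and 288 CD8 class cells. By contigs it was the segment of 52 cells, 1.56% of those with 1 productive beta contig. Of the 649 cells, 42 had a productive Trbv13-2 contig, 6.47% (4.70 to 8.65), and 557 had no productive beta contig of any segment. The same check gave 91.2% for Trbv13-1 (577 of 633 cells), 88.5% for Trbv3 and 84.4% for Trbv31. Trbv19, Trbv2 and Trbv23 were lower, at 59.3%, 23.4% and 46.2%.

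Most of the Trbv13-2 cells carried a contig called Trbv12-2 (ENSMUSG00000094525, chr6:41118851-41119364, plus strand). In 533 of the 649, 82.1% (79.0 to 85.0), there was a Trbv12-2 contig of full length in which no CDR3 was found. Read from the contigs, 545 kept cells had such a contig and no productive beta contig, and Trbv13-2 was on top in the RNA of 492 of them, 90.3% (87.5 to 92.6). These 545 cells had 6.85 Trbv13-2 UMIs and 0.569 Trbv12-2 UMIs on average, against 9.16 Trbv12-2 UMIs in the 76 cells with a productive Trbv12-2 contig. The J calls of these contigs followed the clones. Of 37 groups of cells that shared their alpha chains, had Trbv13-2 on top in RNA and held at least 2 such contigs, 34 had 1 J segment in all of them, while 12 J segments occurred over all groups. The median contig length was 501 bases, against 506 for productive Trbv12-2 contigs and 473 for productive Trbv13-2 contigs. The contig bases are not used here, so whether these contigs hold Trbv13-2 sequence was not tested.

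Some Trbv12-2 contigs without a productive mark did have a CDR3. Of 64 marked not productive, 50 shared the CDR3 in the next line, in which capitals mark the bases that equal the start of the germline end given above and the lower case bases before them lie upstream of the usual start.
Trbv12-2, not productive: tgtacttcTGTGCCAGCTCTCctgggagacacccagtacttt
Of the 47 kept cells with this contig, 43 had no productive beta contig and 38 had Trbv13-2 on top in RNA.

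**Figure D4:**
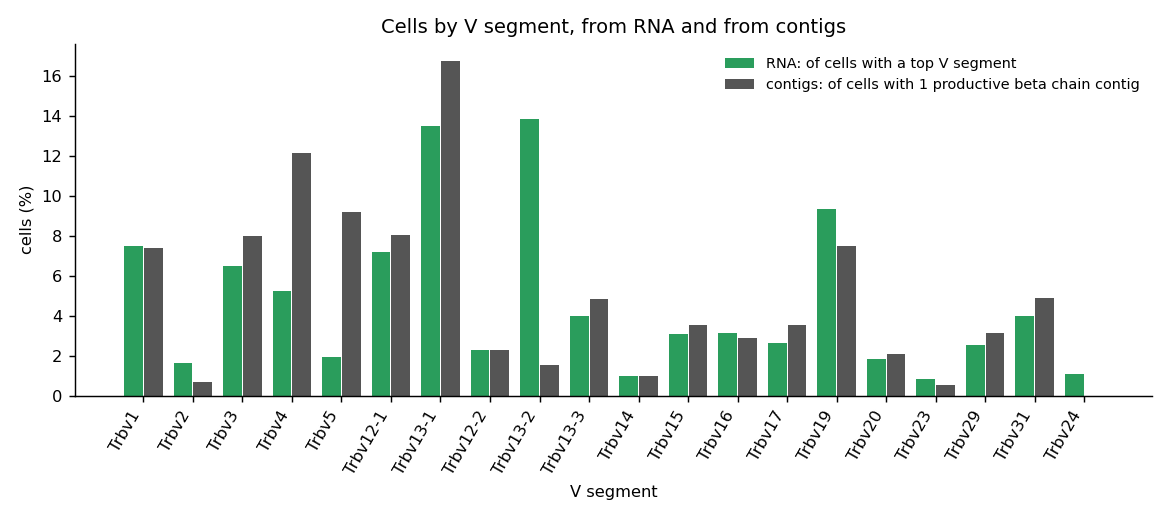
Percent of cells by V segment, as the segment with most UMIs among cells with an RNA call (left bars, n = 4686) and as the segment of the only productive beta contig (right bars, n = 3344). Trbv13-2 stands at 13.8% in RNA and 1.56% in contigs, and Trbv4 and Trbv5 stand lower in RNA than in contigs.

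V use was also counted with the RNA call, a count added after the data were seen, as sets of cells that shared their productive alpha chains and the top segment in RNA. This gave 1267 clonotypes in 3520 cells, 515 of the CD4 class and 475 of the CD8 class. These totals include clonotypes with the excluded Trbv26 on top in RNA, while all 826 contig clonotypes were of the 34 segments. Trbv26 took a larger part of the CD4 class total than of the CD8 class total. Ratios of CD4 over CD8 are therefore lower here than they would be with Trbv26 left out. Among the 34 segments, Trbv13-2 was the most frequent over both classes. It had 57 CD4 class clonotypes, 11.1% (8.49 to 14.1), and 48 CD8 class clonotypes, 10.1% (7.55 to 13.2), a ratio of 1.10 (0.733 to 1.64). Trbv29 kept a ratio of 0.136 (0.0414 to 0.349), Trbv31 had 6.23 (2.17 to 24.5) and Trbv13-1 had 0.384 (0.216 to 0.660). Trbv1 had a ratio of 1.68 (0.973 to 2.96) and Trbv3 of 1.51 (0.961 to 2.40). Ratios without Trbv26 were not computed, so these intervals cannot be set directly against those by contig. Trbv23 had 14 CD4 class and 2 CD8 class clonotypes, a ratio of 6.46 (1.48 to 58.5), and Trbv16 had 14 CD4 class and 37 CD8 class clonotypes, a ratio of 0.349 (0.174 to 0.661). The intervals of Trbv17, at 0.323 (0.115 to 0.795), Trbv12-1, at 0.461 (0.242 to 0.849), and Trbv14, at 0.284 (0.0674 to 0.919), also lay below 1 on this count. The upper bounds of Trbv12-1 and Trbv14 were the nearest to 1. Whether they stay below 1 with Trbv26 left out of the totals was not tested. Trbv4 and Trbv5 are undercounted on this scale.

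Productive marks were spread unevenly over the segments. Of the 7515 beta contigs, 4357 were marked productive, 58.0% (56.9 to 59.1), 358 not productive and 2800 had no mark. All productive contigs were of full length with a CDR3. The contigs without a mark were 1999 that were not of full length and 801 of full length in which no CDR3 was found. Trbv19, Trbv12-2 and Trbv3 held 2573 of the 3158 contigs that were not productive, 81.5% (80.1 to 82.8).

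Among the other segments with at least 20 contigs the productive share ran from 46.9% for Trbv23 to 98.6% for Trbv29, with Trbv24 at 0. Trbv12-2 had 103 productive of 857 contigs, 12.02% (9.92 to 14.4). Trbv19 had 330 of 1714, 19.3% (17.4 to 21.2), and Trbv3 had 337 of 772, 43.7% (40.1 to 47.2). Among contigs of full length, Trbv19 reached 96.2% and Trbv3 90.3%, while for Trbv12-2, whose contigs were all of full length, the share was the same. Of the Trbv3 contigs that were not of full length, 357 kept cells held at least 1, and 276 of the 313 among them without a productive beta contig had the excluded segment Trbv26 on top in RNA.

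A single CDR3 made up most of the Trbv19 (ENSMUSG00000076475, chr6:41178375-41179048, plus strand) contigs that were not productive. It occurred in 1282 contigs of as many barcodes, none of full length, with a median length of 291 bases and a median of 7 UMIs. Capitals in its CDR3 mark the 22 bases that equal the start of the germline TRBJ2-1 segment.
Trbv19, recurrent: tgTAACTATGCTGAGCAGTTCTTC
Only 2 bases of this CDR3 lie before the J segment. It was found in 1177 kept cells, 22.1% of all, and 803 of them also had a productive beta contig, of 18 different V segments among the cells with exactly 1. Trbv19 RNA was detected in 76 of the 1177 cells, 6.46% (5.12 to 8.02), and in 11.5% of the other 4156 cells (10.5 to 12.5), which include cells with a productive Trbv19 chain. Among cells with 1 productive contig of another segment, it was detected in 2.21% with the recurrent contig (1.27 to 3.57) and in 1.40% without it.

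The recurrent contig was more frequent in cells whose productive chain used the first J cluster. The locus has a first cluster of J segments, TRBJ1, upstream of a second, TRBJ2. The contig occurred in 565 of 1214 cells whose productive chain used a TRBJ1 segment, 46.5% (43.7 to 49.4), and in 179 of 2130 that used a TRBJ2 segment, 8.40% (7.26 to 9.66). With clonotypes weighted alike the shares were 39.8% over the 250 TRBJ1 clonotypes and 8.91% over the 576 TRBJ2 clonotypes. By class it occurred in 16.5% of CD4 class cells (14.8 to 18.3) and 28.3% of CD8 class cells (26.5 to 30.1). With clonotypes weighted alike these were 14.1%, for the CD4 class, and 21.2%, for the CD8 class.

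The remaining contigs that were not productive mostly came with RNA of their segment. In cells with 1 productive beta contig, a second contig marked not productive of another segment, outside the 3 recurring kinds above, came with RNA of that segment in 125 of 153 cases, 81.7% (74.6 to 87.5), against 3.05% in cells without such a contig. The same held for 76 of 104 second contigs with no mark, 73.1% (63.5 to 81.3), against 1.93%. The RNA of the second segment was lower than that of the productive one, at 2.10 UMIs per cell against 5.37 for contigs marked not productive, and at 2.59 against 4.63 for those with no mark. For the recurrent Trbv19 contig, given above, this was 16 of 723 cases. Trbv12-2 contigs without a CDR3 came with Trbv12-2 RNA in 16 of 64 cases, 25.0% (15.0 to 37.4), against 6.32%. In cells with 2 productive beta contigs of different segments, RNA of both was present in 178 of 221, 80.5% (74.7 to 85.5). Doublets were not called, and their part in these cells was not tested.

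With each distinct CDR3 counted once, there were 981 distinct pairs of segment and CDR3 among productive contigs and 143 among contigs marked not productive. Trbv24 made up 0 of the productive pairs and 18 of the not productive pairs, 12.6%. Trbv4 made up 5.81% of the productive and 11.9% of the not productive pairs, and Trbv15 made up 6.63% of the productive and 11.2% of the not productive pairs. Trbv29 made up 5.50% of the productive pairs and 0.699% of the not productive pairs.

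**Figure D5:**
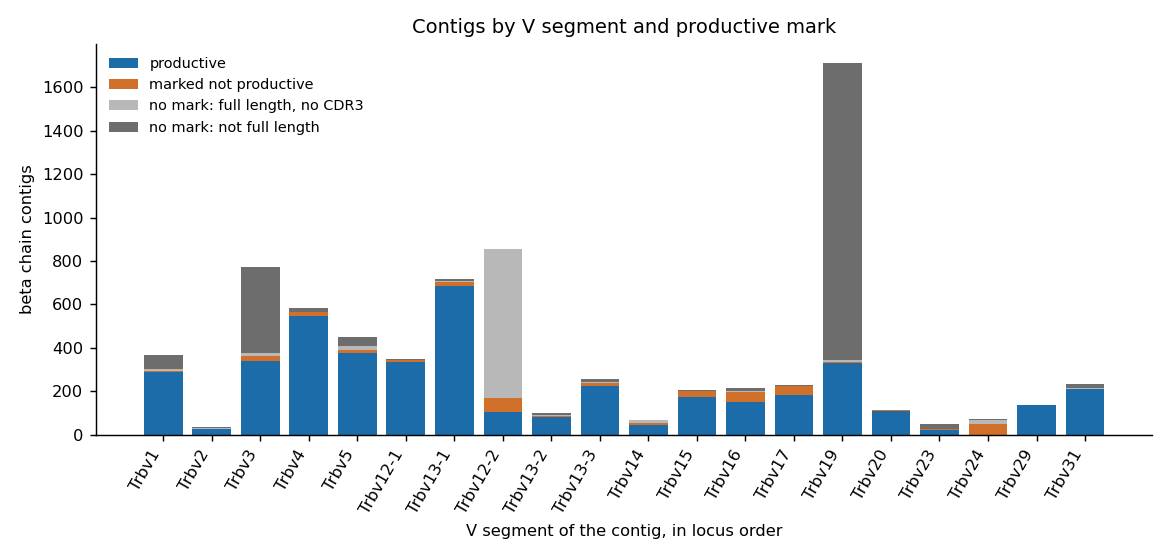
Number of beta chain contigs by V segment and mark, for segments with at least 20 contigs, in the order of the locus. Trbv19 and Trbv3 hold most contigs that are not of full length, and Trbv12-2 holds 690 contigs of full length without a CDR3.

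Trbv24 (ENSMUSG00000102955, chr6:41218091-41218557, plus strand) was seen as RNA and as contigs, but in no productive chain. None of its 72 contigs was productive (up to 4.99% by the Clopper-Pearson bound), and 51 had a CDR3 and were marked not productive. GENCODE lists it as a pseudogene and RefSeq as a V segment. Its RNA was 248 UMIs in 151 cells, 0.0234 UMIs per 10000 in the CD4 class, against 0.123 in the CD8 class. A single clone held much of it. In the Trbv4 clonotype of 83 cells, 50 cells had Trbv24 RNA, 60.2% (48.9 to 70.8), with 86 UMIs, against 2.05% of the other cells with 1 productive beta contig. These cells had 99 Trbv4 RNA UMIs in all, and 13 of them had a Trbv24 contig. Trbv24 was on top in the RNA of 41 of the 406 cells with a Trbv4 contig.

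Trbv22 (ENSMUSG00000102988, chr6:41212244-41212534, plus strand), a pseudogene in both annotations, showed a like pattern in the Trbv17 clone of 57 cells, which lies mostly in the CD4 class. Of its cells, 21 had Trbv22 RNA, 36.8% (24.4 to 50.7), with 35 of the 46 Trbv22 UMIs in all, against 0.152% of the other cells. No Trbv22 contig was present.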

How the data were processed

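The deposited RNA values are UMI counts per gene and barcode, whole numbers that were not normalized. The deposited contig table gives read and UMI counts per contig, with the authors' chain, segment, CDR3 and productive calls. Per the submitters' processing notes, Cell Ranger and mm10 were used; the version and the TCR reference are not given in the sources used here. Kept cells had at least 500 genes and at most 10% mitochondrial UMIs. No doublet caller was run; cells with 2 or more productive beta contigs (232) stayed out of clonotypes and of the match of the top RNA segment with the single contig. Shares carry Clopper-Pearson intervals, levels exact Poisson intervals and ratios exact conditional binomial intervals. Cells are not replicates and the pool is 1 sample, so no test was made.

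Described in full were the 8 segments with most clonotypes, up to 4 at either extreme of the CD4 over CD8 ratio, ranked among segments with at least 20 clonotypes by the bound closest to 1, those with at least 20 cells whose RNA matched in under 80%, and those with at least 20 contigs of which under 10% were productive. The members, lists and alternatives were chosen with earlier results of these data known. The code for ratios was checked on simulated data. Positions and germline sequences came from GENCODE M21 on mm10, CDR3 bases from the deposited contig table, and segment types and older names from RefSeq. Marker lists of gamma delta T and epithelial cells were also run, and at least 3 of their markers were found in 2 and 3 kept cells; of 3 NK cell markers, 2 had any UMI, at a summed 0.155 per 10000 in the CD4 class and 0.142 per 10000 in the CD8 class. Tools were Python 3.11.15, numpy 2.4.6, scipy 1.17.1, pandas 2.3.3, Biopython 1.88 and matplotlib 3.10.9.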

Additional observations from a re-analysis of the deposited data

Results flagged for a closer look

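The contig table held 2382 contigs of mixed chain that end in a beta constant segment, and 19 of all 2787 contigs of mixed chain had a beta V call. The contigs of mixed chain entered no comparison, and 143 kept cells had one with a beta constant segment but no beta contig. A further 531 productive beta contigs belonged to barcodes outside the RNA table. These barcodes entered no comparison with RNA or between the classes. Both counts are larger than the 3 counts that a count of 0 allows.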

How the results depend on the processing

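The count of segments at least 1.5-fold apart between the classes was 10 of 15 and lay between 8 of 16, by the beta chain alone, and 12 of 16, by cells, under the 10 alternatives, in which 13 to 16 segments had enough clonotypes or cells. Of these alternatives the RNA call with alpha chains was added after the data were seen. The RNA count was 15 of 20, between 15 and 16 of 20 under 3 alternatives and 10 of 16 with 1 cell per clonotype. Counting cells turned Trbv15 to 0.765 and Trbv17 to 2.22, and 1 cell per clonotype turned their RNA ratios to 2.46 and 0.614; largest clones are in the text. Trbv29, Trbv31, Trbv1, Trbv3, Trbv13-1 and Trbv16 kept their side of 1 under all 10. The match of RNA and contigs was 83.2%; it was 78.5% with at least 2 UMIs required and ties with the contig segment counted, 70.2% at 2000 UMIs per cell, 55.7% at 1000 and 94.1% without Trbv4 and Trbv5 (added later). Detection was 75.7%, against 89.0% without thinning and 59.7% at 1000 UMIs. The productive share was 58.0%, and 79.2% of contigs of full length. RNA of second segments was found in 21.6% of cases, in 66.3% for contigs of full length and in 78.2% without the 3 recurring kinds (added later). Trbv19 made up 43.8% of contigs that were not productive, 1.14% of those of full length, 6.63% of distinct segment and CDR3 pairs and 5.44% without the recurrent CDR3 (added later). Cells per clonotype were 3.18, and 2.26 without the largest clonotype of each segment; they were 3.61 in CD4 class and 3.72 in CD8 class clonotypes (added later). The cause of these shifts was not tested. No paired analysis was possible because the pool is 1 sample. With 1 pool the values cannot be set against mouse-to-mouse spread.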
